A study of Homo sapiens with 77 samples.

Results

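The 10 enzymes described here make serine from a glycolytic intermediate and pass its one-carbon unit through folate, or, for ALDH18A1, start proline synthesis. They were taken by name, as 10 of the 35813 genes of one count table and of the 21455 genes of another, and every one has a value in all 32 libraries. PHGDH, PSAT1 and PSPH catalyse the successive steps of serine synthesis. SHMT1 in the cytosol and SHMT2 in mitochondria split serine into glycine and a one-carbon unit carried by tetrahydrofolate. MTHFD1 interconverts the carried unit in the cytosol, and MTHFD2, MTHFD1L and ALDH1L2 do so in mitochondria, from which formate is released for cytosolic purine and thymidylate synthesis. ALDH18A1 is a mitochondrial enzyme that makes the precursor of proline. Many of these genes are known targets of ATF4, a transcription factor that is translated when amino acids are scarce and downstream of mTORC1.

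The study asked whether lymphomas with mutant EZH2, the methyltransferase of PRC2, depend on MEN1 (menin), the partner of MLL1. RNA depleted of ribosomal RNA was sequenced from human diffuse large B cell lymphoma (DLBCL) lines. In the MI-503 experiment the EZH2 mutant lines KARPAS422 and DB and the EZH2 wildtype lines Farage and SUDHL5 were treated with MI-503, a MEN1 inhibitor, or with DMSO, the vehicle. In the drug combination experiment the EZH2 mutant lines KARPAS422 and SuDHL10 were treated with the EZH2 inhibitor EPZ-6438 (tazemetostat), the MEN1 inhibitor VTP50469, both drugs, or DMSO. Each group holds 2 libraries. The labels give no dose or time. The study's legends give different doses and times for MI-503 and VTP50469, and different times for KARPAS422 and SuDHL10, so these are set side by side and not compared. Line and EZH2 genotype cannot be told apart here, since each genotype is represented by a few lines, which the study did not authenticate. No source states separate cultures for the libraries of a group. The p-values below therefore cover the spread between these libraries alone, which may be technical.

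Totals ranged from 13034958 to 54883332 counts in the MI-503 experiment and from 8956156 to 31573027 in the drug combination. In DB the MI-503 libraries held 52236459 and 46170498 counts, against 14695930 and 15474692 in the DMSO libraries. Depth and treatment therefore cannot be told apart in that line. Thinning the counts evens the depth and does not separate treatment from other differences between these libraries. The 6 B cell markers were detected in every library, and their summed level lay between 2647.6 and 5824.47 CPM (counts scaled to a common TMM-normalized library size). Farage MI-503 replicate 1 held 19.4 CPM of KRT14 and 24.5 CPM of HBB, keratinocyte and red cell genes, against at most 0.0626 and 0.139 CPM in the other Farage libraries. KARPAS422 held 44.9 to 65.5 CPM over 6 T and NK cell genes over both experiments. Its sum over 5 stromal genes was higher with each drug, at 898 and 843 CPM with MI-503 against 767 and 743 CPM with DMSO in the MI-503 experiment. In the drug combination experiment that sum was 1183 and 904 CPM with both drugs, 1007 and 971 CPM with EPZ-6438 and 816 and 775 CPM with VTP50469, against 650 and 563 CPM with DMSO. DCN carried nearly all of it, and the defining collagens COL1A1, COL1A2 and COL3A1 and LUM each held at most 2.60 CPM in any KARPAS422 library, with 0 to 4 of the 5 genes at 0.

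In the GENCODE annotation of hg38, PHGDH lies at chr1:119648411-119744218, PSAT1 at chr9:78297125-78330093, MTHFD2 at chr2:74186172-74217565 and MTHFD1L at chr6:150865679-151101887, each on the plus strand. SHMT2 at chr12:57229573-57234935 and MTHFD1 at chr14:64388031-64463457 also lie on the plus strand. PSPH at chr7:56011051-56051604, SHMT1 at chr17:18327860-18363563, ALDH1L2 at chr12:105019784-105107643 and ALDH18A1 at chr10:95605941-95656711 lie on the minus strand. Protein-coding genes of the opposite strand overlap SHMT1 (SMCR8), SHMT2 (NDUFA4L2), MTHFD1 (ZBTB25), MTHFD2 (SLC4A5) and ALDH1L2 (NOPCHAP1 and WASHC4). No source states whether the counting used strand, and reads of such partners cannot be told apart.

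Promoter windows of 300 bases, from 250 bases before to 50 after a gene's start, were read from RefSeq (GRCh38.p14) for 7 of the 10 members, not for PSPH, SHMT2 or ALDH1L2. PHGDH is printed for its differences between lines and PSAT1 for its differences with MI-503. MTHFD1L is printed because it alone among the 7 held the core of a site that ATF4 is known to bind, in 3 of its 4 windows (overlapping ones, of which 1 is shown) and not in the one at chr6:151006758-151007057. The capitals mark that core (TGATGNAA) and an E-box (CACGTG), the site bound by MYC and MITF family factors, searched on both strands.
PHGDH, chr1:119711684-119711983, plus strand: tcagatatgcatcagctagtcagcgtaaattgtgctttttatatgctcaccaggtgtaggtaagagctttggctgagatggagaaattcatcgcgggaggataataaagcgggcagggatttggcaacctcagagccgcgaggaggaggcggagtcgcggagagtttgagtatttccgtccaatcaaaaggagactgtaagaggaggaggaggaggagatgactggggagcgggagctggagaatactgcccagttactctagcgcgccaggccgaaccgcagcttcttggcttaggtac
PSAT1, chr9:78296875-78297174, plus strand: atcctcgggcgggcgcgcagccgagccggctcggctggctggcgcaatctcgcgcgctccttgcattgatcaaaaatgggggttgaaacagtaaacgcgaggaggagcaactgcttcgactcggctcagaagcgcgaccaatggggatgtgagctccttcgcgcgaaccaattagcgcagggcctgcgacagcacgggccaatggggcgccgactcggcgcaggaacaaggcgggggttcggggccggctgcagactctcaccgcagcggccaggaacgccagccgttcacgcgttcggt
MTHFD1L, chr6:150866236-150866535, plus strand: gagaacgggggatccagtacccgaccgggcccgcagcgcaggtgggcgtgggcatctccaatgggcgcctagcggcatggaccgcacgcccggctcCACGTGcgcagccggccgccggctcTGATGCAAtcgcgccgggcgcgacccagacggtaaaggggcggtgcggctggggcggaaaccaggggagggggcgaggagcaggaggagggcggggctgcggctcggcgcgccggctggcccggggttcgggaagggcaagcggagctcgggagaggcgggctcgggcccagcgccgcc
In the MTHFD1L window the E-box starts at base 97 and the TGATGNAA match at base 122, and the PHGDH and PSAT1 windows held neither. Of all 35116 windows of this length, 3.62% held TGATGNAA and 7.26% held CACGTG. Among the other members, ALDH18A1 and MTHFD1 held an E-box. The PHGDH window, which belongs to a start inside the longer GENCODE gene, held 15 CpG, near the median of 14 over all windows, while those of PSAT1 and MTHFD1L held 37 and 40. A match is a description of the letters and not of binding.

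The first question was how much of each enzyme's RNA the lines held without drug. Levels between genes were compared per kilobase of the canonical transcript. In KARPAS422 DMSO cells the mitochondrial SHMT2 and MTHFD2 led, at 168 and 169 and at 121 and 118 CPM per kb, followed by PSAT1 at 88.2 and 92.4. MTHFD1L (38.1 and 40.6 CPM per kb), PSPH (31.2 and 32.3), ALDH18A1 (24.2 and 23.7) and SHMT1 (14.8 and 14.5) followed, and MTHFD1 had 8.83 and 8.43. SHMT2 was also the highest member per kb in the DMSO libraries of DB (162 and 169), Farage (142 and 145) and SUDHL5 (336 and 312). The order of the members therefore began with SHMT2 in all 4 lines of the MI-503 experiment, but PHGDH took very different places. The order did not carry over to the drug combination experiment. There KARPAS422 DMSO libraries averaged 117 CPM per kb of MTHFD1, 105 of SHMT2 and 30.4 of MTHFD2. In SuDHL10 DMSO libraries SHMT2 led, at 219, with MTHFD1 at 129.

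PHGDH, the first and committed enzyme of serine synthesis, was nearly absent from KARPAS422. It held 105 and 105 counts in the KARPAS422 DMSO libraries, or 1.87 and 1.86 CPM, against 183 and 189 CPM in DB, 150 and 164 CPM in Farage and 575 and 528 CPM in SUDHL5. The level in KARPAS422 was 91.8-fold lower than in Farage (log2 difference -6.52), 98.7-fold lower than in DB (-6.62) and 302-fold lower than in SUDHL5 (-8.24). The 210 summed counts of KARPAS422 gave 1.91 CPM, with an exact 95% Poisson interval of 1.66 to 2.19 CPM for counting error. In the drug combination experiment the KARPAS422 DMSO libraries held 4 and 18 PHGDH counts and the SuDHL10 DMSO libraries 0 and 2. The summed SuDHL10 level of 0.0463 CPM had an exact 95% Poisson interval of 0.0056 to 0.167 CPM, and that of KARPAS422 of 0.704 CPM one of 0.441 to 1.07 (both intervals cover counting error only). PHGDH was therefore low in both EZH2 mutant lines of that experiment and high in the EZH2 mutant line DB. The next enzymes of the pathway were not low in KARPAS422 or SuDHL10.

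PSAT1, the aminotransferase of the second step, had 195 and 204 CPM in KARPAS422 DMSO libraries, 101 and 108 CPM in DB, 133 and 146 CPM in Farage and 267 and 270 CPM in SUDHL5. The libraries of the 4 lines did not overlap, and the order was DB, Farage, KARPAS422 and SUDHL5. PSPH, the phosphatase that releases serine, had 61.6 and 63.7 CPM in KARPAS422, 77.6 and 80.6 CPM in DB, 33.1 and 30.8 CPM in Farage and 90.6 and 90.0 CPM in SUDHL5. Under DMSO SuDHL10 exceeded KARPAS422 in PSAT1 (181 and 196 CPM in SuDHL10 against 130 and 103 CPM in KARPAS422) and in PSPH (121 and 119 CPM in SuDHL10 against 71.3 and 62.8 CPM in KARPAS422).

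ALDH1L2, the mitochondrial enzyme that oxidises formyl-tetrahydrofolate, was high in SUDHL5 alone of the lines. SUDHL5 DMSO libraries held 242 and 226 CPM, whereas KARPAS422 held 36 and 20 counts (0.643 and 0.355 CPM), DB 1 and 3 counts (0.0686 and 0.196 CPM) and Farage 10 and 6 counts (0.696 and 0.384 CPM). The drug combination libraries held 0 to 8 ALDH1L2 counts each, in both lines. The log2 difference from SUDHL5 was -8.90 ± 0.10 in KARPAS422, -10.77 ± 0.16 in DB and -8.68 ± 0.13 in Farage, and the fitted values depend on the prior count where counts are this low. Both the serine synthesis gene PHGDH and the mitochondrial folate genes SHMT2 and MTHFD2 were also highest in SUDHL5. The mitochondrial folate gene MTHFD1L was lowest there, at a mean of 74.3 CPM against 94.9 in Farage, 136 in KARPAS422 and 152 in DB.

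ALDH1L2 entered the fit of the 4 lines only through SUDHL5, where it is high, so it is left out of the counts that follow and nothing is read from its differences among the other lines. The differences between lines were not unusual in number against all genes. Between KARPAS422 and Farage 8 of the 9 other members differed at an adjusted p under 0.1 (edgeR's quasi-likelihood test with Benjamini-Hochberg adjustment), against 80.4% of all genes tested. The members that differed numbered 9 of 9 between KARPAS422 and SUDHL5 (81.8% of all genes), 8 of 9 between KARPAS422 and DB (81.2%), 9 of 9 between DB and Farage (82.1%), 8 of 9 between DB and SUDHL5 (81.4%) and 8 of 9 between Farage and SUDHL5 (78.3%). Of the members higher or lower in KARPAS422 than in Farage, PSPH (log2 difference 0.85 ± 0.06 SE), MTHFD2 (0.63 ± 0.03), PSAT1, MTHFD1L and SHMT2 were higher, and PHGDH, ALDH18A1 (-1.39 ± 0.04) and SHMT1 (-0.77 ± 0.05) were lower. Against SUDHL5, KARPAS422 was higher in MTHFD1L (0.83 ± 0.04) and MTHFD1 (0.72 ± 0.09) and lower in the other 7, from SHMT2 (-0.98 ± 0.03) and SHMT1 (-0.80 ± 0.05) to MTHFD2 (-0.25 ± 0.03), beside PHGDH. Against DB it was higher in PSAT1 (0.94 ± 0.05), MTHFD2 (0.69 ± 0.03) and MTHFD1 (0.56 ± 0.10) and lower in SHMT1 (-1.16 ± 0.05), ALDH18A1 (-0.89 ± 0.04), PSPH, MTHFD1L and PHGDH. The count between DB and Farage fell to 5 without DB DMSO replicate 2 and to 6 without Farage DMSO replicate 1, and MTHFD2 (-0.07 log2) was lost there without any of the 4 libraries and turned to 0.08 with total counts alone. MTHFD1 was higher in DB than in SUDHL5 without DB DMSO replicate 2 or SUDHL5 DMSO replicate 1. SuDHL10 exceeded KARPAS422 in 6 of 8 members tested, against 62.4% of all genes differing in either direction, led by SHMT2 (1.03 ± 0.15 log2) and PSPH (0.80 ± 0.14), in lines whose treatment times differed. That count was 3 with the replicate block, whose pairing by number was not examined between lines, and 3 without SuDHL10 DMSO replicate 1. MTHFD1L (0.32 ± 0.13) lost its call without any of the 4 libraries and ALDH18A1 (0.34 ± 0.14) without any but KARPAS422 DMSO replicate 1, and both lost it with total counts alone.

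**Figure D1:**
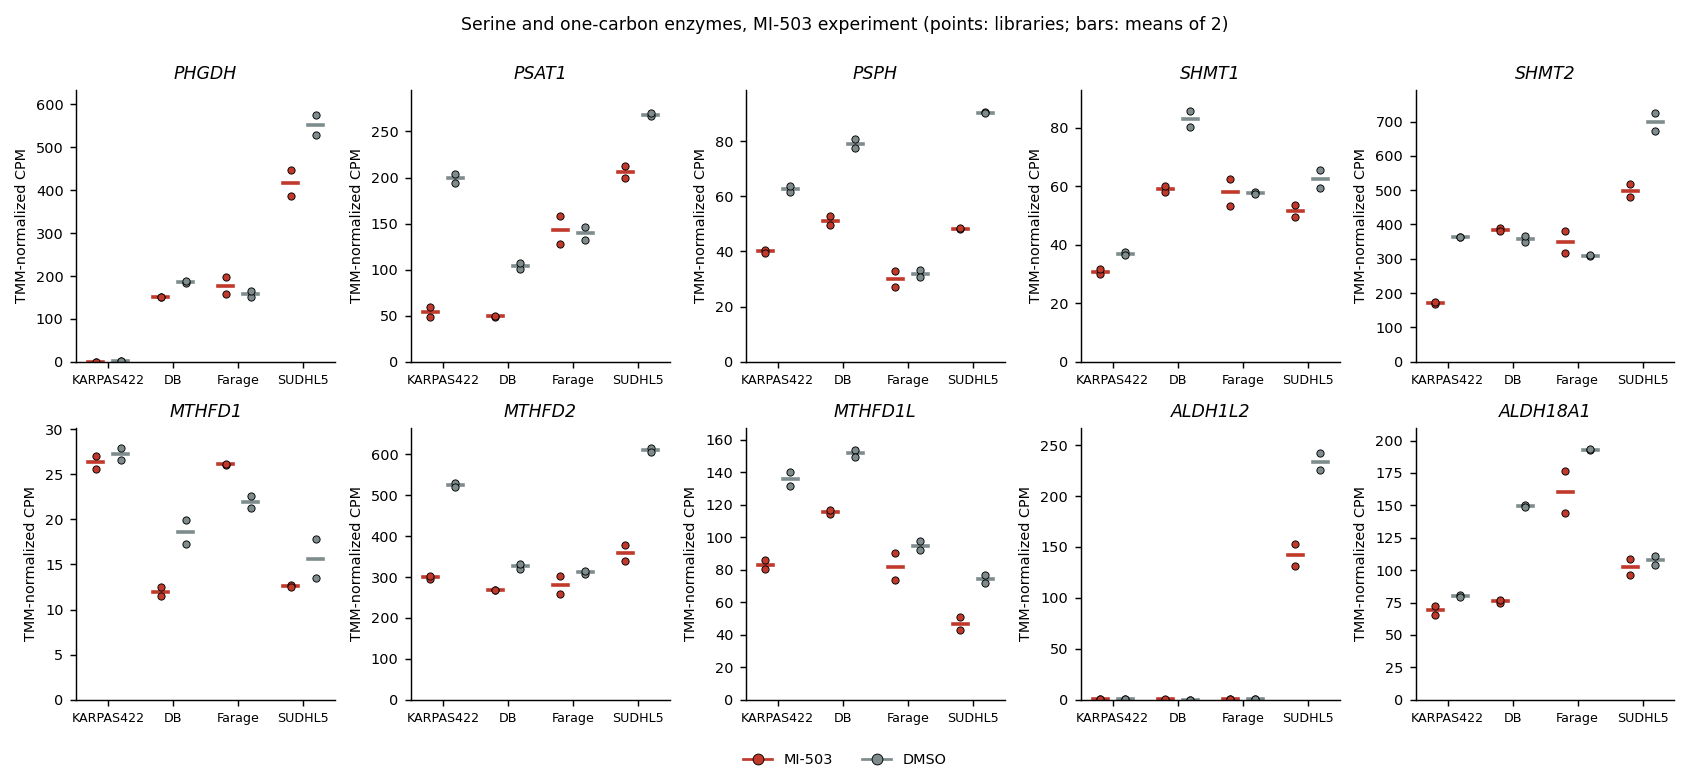
TMM-normalized CPM (y axis, from 0) of each enzyme in the 16 libraries of the MI-503 experiment. In each line MI-503 libraries stand left of DMSO libraries, and each point is a library. PSAT1 shows 48.4 and 59.2 CPM with MI-503 in KARPAS422 against 195 and 204 CPM with DMSO, ALDH1L2 is near 0 outside SUDHL5, and PHGDH is near 0 in KARPAS422.

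The next question was what the MEN1 inhibitor MI-503 did to these genes in each line. In KARPAS422, MI-503 lowered the RNA of 8 of 10 members, led by PSAT1, PHGDH and SHMT2. In bulk RNA, fewer cells of a type and less RNA per cell cannot be told apart. The 8 lower members compare with 26.3% of all genes tested that were lower, and 6 of the 8 were lower by more than 1.5-fold. The median log2 fold change was -0.66 over the members and 0.01 over all genes tested. The DCN level that was also higher with MI-503 in these libraries (898 and 843 CPM with MI-503 against 767 and 743 CPM with DMSO) came without the collagens, and its part in the falls was not tested.

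PSAT1 had 48.4 and 59.2 CPM in MI-503 libraries of KARPAS422, against 195 and 204 CPM in DMSO libraries. Both treated libraries lay below both controls, with a log2 fold change of -1.89 ± 0.08 (adjusted p = 4.08e-08). PHGDH held 29 and 13 counts with MI-503 against 105 and 105 counts with DMSO, a fall of a level that was already low (0.522 and 0.474 CPM with MI-503 against 1.87 and 1.86 CPM with DMSO; -1.87 ± 0.26 log2, adjusted p = 0.000177). PSPH, the last enzyme of the pathway, fell less, to 40.7 and 39.5 CPM with MI-503 against 61.6 and 63.7 CPM with DMSO (-0.62 ± 0.04).

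Of the 4 mitochondrial folate enzymes of KARPAS422, SHMT2, MTHFD2 and MTHFD1L fell and ALDH1L2 was not called. SHMT2 had 167 and 173 CPM with MI-503 against 363 and 365 CPM with DMSO (-1.08 ± 0.04). MTHFD2, a dehydrogenase and cyclohydrolase, had 296 and 303 CPM with MI-503 against 531 and 521 CPM with DMSO (-0.79 ± 0.03). MTHFD1L, the mitochondrial formate-releasing enzyme, had 80.4 and 85.7 CPM with MI-503 against 131 and 140 CPM with DMSO (-0.69 ± 0.05). None of the treated libraries overlapped the controls for these genes, and the share of all genes without overlap was not counted. The cytosolic SHMT1 (-0.25 ± 0.06) and the proline enzyme ALDH18A1 (-0.19 ± 0.04) fell by less than 1.5-fold, and the SHMT1 call was lost without KARPAS422 MI-503 replicate 1 (-0.16, adjusted p = 0.111). MTHFD1 did not pass the test (mean 26.3 CPM with MI-503 and 27.2 CPM with DMSO, log2 95% interval -0.18 to 0.10). ALDH1L2 had 16 and 19 counts with MI-503 and 36 and 20 with DMSO, with an interval of -1.22 to 0.99.

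In DB, the other EZH2 mutant line treated with MI-503, 8 of the 9 members tested were lower and SHMT2 was higher. Of all genes tested in DB 34.7% were lower and 34.5% higher, so a large part of the transcriptome moved there, and 4 of the lower members passed 1.5-fold. PSAT1 had 49.1 and 49.8 CPM with MI-503 against 101 and 108 CPM with DMSO (-1.08 ± 0.04). ALDH18A1 had 75.0 and 77.3 CPM with MI-503 against 150 and 149 CPM with DMSO (-0.98 ± 0.03), and the difference from its -0.19 in KARPAS422 was not tested. MTHFD1 (-0.64 ± 0.09) and PSPH (-0.64 ± 0.05) also fell past 1.5-fold, and SHMT1 fell by 0.50 ± 0.04 log2. MTHFD1L (-0.40 ± 0.03), PHGDH (-0.30 ± 0.03) and MTHFD2 (-0.30 ± 0.03) fell by less.

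SHMT2 of DB went the other way, by little. It had 389 and 382 CPM with MI-503 against 350 and 365 CPM with DMSO (0.10 ± 0.03, adjusted p = 0.00894). The groups did not overlap, but the call was lost without DB DMSO replicate 1 (0.06, adjusted p = 0.17) and in 1 fit of all 16 libraries (adjusted p = 0.146). ALDH1L2 did not pass the filter on low counts in DB, where it had 13 and 15 counts with MI-503 and 1 and 3 with DMSO in libraries of unequal depth. With counts thinned to the smallest library, 9 members of DB were called as before, 1 higher and 8 lower. Thinning evens the depth alone, so other differences between the deep and shallow libraries still go with treatment in DB.

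In Farage, an EZH2 wildtype line, no member changed by 1.5-fold, and PSAT1 had 128 and 158 CPM with MI-503 against 133 and 146 CPM with DMSO. Its log2 fold change was -0.01, with a 95% interval of -0.14 to 0.12. Of 9 members tested, 3 were lower (14.7% of all genes were lower) and 1 was higher (12.3% of all genes were higher). ALDH18A1 had 144 and 176 CPM with MI-503 against 192 and 193 CPM with DMSO (-0.31 ± 0.05), MTHFD1L 73.6 and 90.1 CPM with MI-503 against 92.1 and 97.6 CPM with DMSO (-0.25 ± 0.06), and MTHFD2 258 and 304 CPM with MI-503 against 308 and 315 CPM with DMSO (-0.20 ± 0.04). SHMT2 had 317 and 380 CPM with MI-503 against 307 and 312 CPM with DMSO (0.13 ± 0.04, adjusted p = 0.0603). None of the 5 cytosolic members passed, while PHGDH had 158 and 198 CPM with MI-503 against 150 and 164 CPM with DMSO (0.13, interval 0.00 to 0.26). PHGDH and MTHFD1 were called higher with total counts alone (0.17 and 0.23) and with no filter on low counts (0.14 and 0.20).

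The Farage calls rested on single libraries. ALDH18A1 alone kept its call without each library in turn. The count of 4 fell to 2 without Farage DMSO replicate 1 and to 1 without Farage DMSO replicate 2. SHMT2 lost its call without either DMSO library or without MI-503 replicate 2 (0.08 to 0.14), MTHFD2 without either DMSO library (-0.21 and -0.18), and MTHFD1L without DMSO replicate 2 (-0.21). Without Farage MI-503 replicate 1, the library with KRT14 and HBB, PHGDH rose by 0.20 ± 0.05 log2 (adjusted p = 0.00699), and without MI-503 replicate 2 MTHFD1 rose by 0.29 ± 0.10 (adjusted p = 0.0336). The part of that library's keratin and globin RNA in these values was not tested.

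In SUDHL5, the other EZH2 wildtype line, 9 of 10 members were lower, against 28.7% of all genes tested. PSPH fell most, to 48.2 and 48.4 CPM with MI-503 against 90.6 and 90.0 CPM with DMSO (-0.89 ± 0.06). MTHFD2 had 340 and 377 CPM with MI-503 against 615 and 605 CPM with DMSO (-0.74 ± 0.04), and ALDH1L2, expressed at this level in no other line, had 131 and 153 CPM with MI-503 against 242 and 226 CPM with DMSO (-0.69 ± 0.04). MTHFD1L also fell past 1.5-fold (-0.63 ± 0.05). A SUDHL5 fall below 1.5-fold was measured for SHMT2 (-0.46 ± 0.04), PHGDH (386 and 448 CPM with MI-503 against 575 and 528 CPM with DMSO, -0.38 ± 0.04), PSAT1 (199 and 213 CPM with MI-503 against 267 and 270 CPM with DMSO, -0.35 ± 0.05) and SHMT1 (-0.26 ± 0.05). MTHFD1 (-0.34 ± 0.11) lost its call with DESeq2 (adjusted p = 0.191), without SUDHL5 DMSO replicate 1 (-0.14) and without MI-503 replicate 2 (-0.24). ALDH18A1 was not called (-0.05, interval -0.14 to 0.05).

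**Figure D2:**
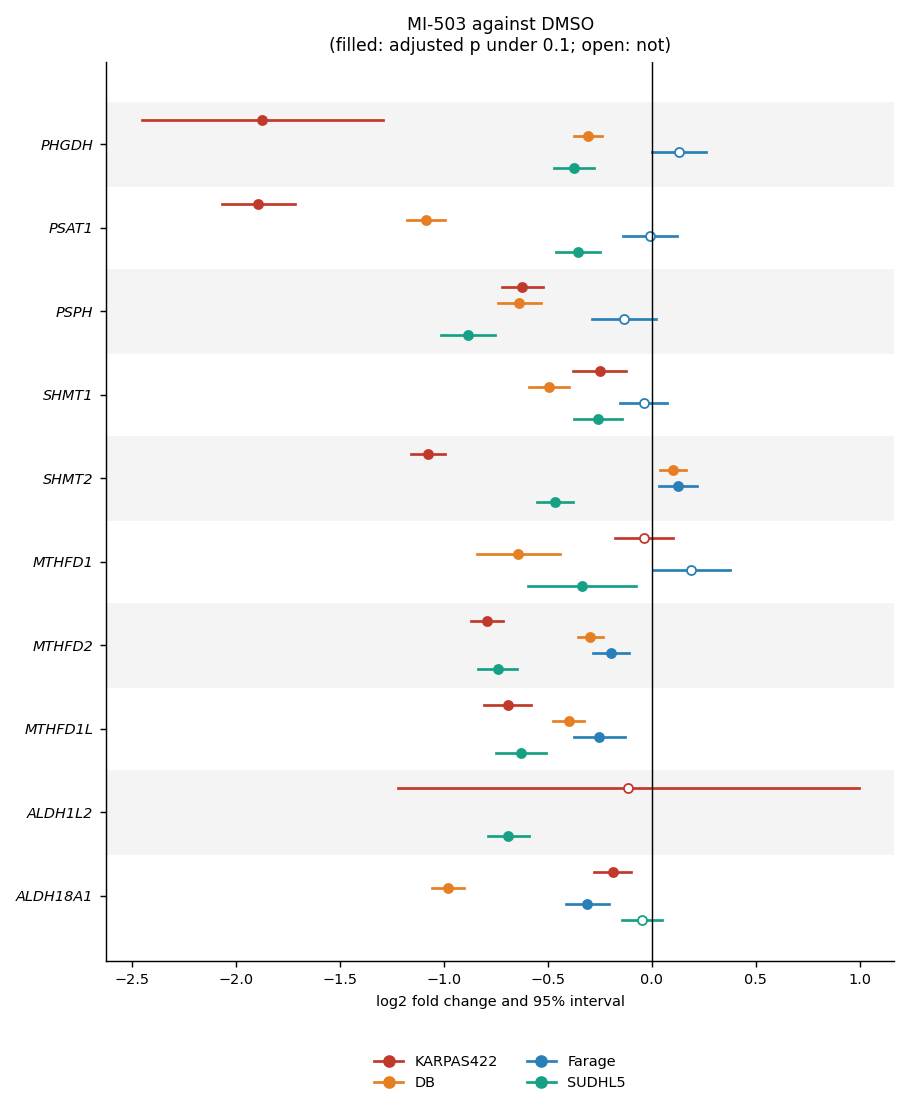
Log2 fold change of MI-503 over DMSO (x axis) with the 95% interval of each enzyme (y axis) in KARPAS422, DB, Farage and SUDHL5. PSAT1 lies at -1.89 in KARPAS422, -1.08 in DB, -0.35 in SUDHL5 and -0.01 in Farage, while SHMT2 lies at -1.08 in KARPAS422 and at 0.10 in DB.

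Whether lines differed in their response was tested as an interaction of line and treatment in the 8 libraries of each pair of lines. The log2 fold change was lower in KARPAS422 than in Farage in 7 of 10 members, not all of which fell in Farage. Of all 15228 genes tested the response differed for 24.2% in either direction, and 2234 genes were lower in KARPAS422. The difference in log2 fold change was -2.03 ± 0.26 for PHGDH, -1.91 ± 0.13 for PSAT1, -1.23 ± 0.07 for SHMT2 and -0.63 ± 0.07 for MTHFD2, and those of PSPH, MTHFD1L and SHMT1 were smaller. SHMT1 (-0.24 ± 0.09) lost its call with RLE size factors, DESeq2, no filter or thinned counts, and without any 1 of 6 of the 8 libraries (all but KARPAS422 MI-503 replicate 2 and Farage MI-503 replicate 1). MTHFD1 (interval -0.48 to -0.02), ALDH1L2 (-1.67 to 1.92) and ALDH18A1 (-0.07 to 0.25) were not called. Without Farage MI-503 replicate 2, MTHFD1 (-0.33) and ALDH18A1 (0.19) were.

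Against SUDHL5, KARPAS422 differed in 5 members, against 35.9% of all genes. The 3 genes that set KARPAS422 apart from both wildtype lines by over 1.5-fold were PSAT1 (-1.54 ± 0.11), PHGDH (-1.50 ± 0.19) and SHMT2 (-0.62 ± 0.05), with PHGDH read from few counts in KARPAS422. MTHFD2 (interval -0.18 to 0.06), MTHFD1L (-0.24 to 0.10), SHMT1 (-0.17 to 0.17), MTHFD1 (0.02 to 0.60) and ALDH1L2 (-0.41 to 1.33) were not called. MTHFD1, which fell in SUDHL5, was called with RLE size factors (0.33, adjusted p = 0.0898), total counts alone (0.33) and no filter (0.33), and without SUDHL5 DMSO replicate 2 (0.44), and ALDH1L2 without KARPAS422 MI-503 replicate 1 (1.19). PSPH fell less in KARPAS422 than in SUDHL5 (0.25 ± 0.08), a call lost with thinned counts (adjusted p = 0.109). The ALDH18A1 difference (-0.15 ± 0.06) was lost without any 1 of 6 of the 8 libraries (all but MI-503 replicate 1 of each line), with RLE size factors, with total counts alone, with no filter, with DESeq2 and in 1 fit of all 16 libraries.

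DB differed from Farage in 7 of 9 members, each with a lower log2 fold change in DB, against 48.5% of all genes in either direction. Of all 13948 genes tested, 4052 were lower in DB. The largest were PSAT1 (-1.10 ± 0.09), MTHFD1 (-0.86 ± 0.13) and ALDH18A1 (-0.70 ± 0.07), and PSPH (-0.54 ± 0.09), SHMT1 (-0.49 ± 0.07) and PHGDH (-0.46 ± 0.08) followed, so that the 5 cytosolic enzymes were all among them. MTHFD1L (-0.18 ± 0.07) lost its call without any 1 of 7 of the 8 libraries (all but Farage MI-503 replicate 1) and under 6 other settings. SHMT2 (-0.05, interval -0.19 to 0.09) and MTHFD2 (-0.13, interval -0.25 to 0.00) were not called, but were without Farage MI-503 replicate 1 (SHMT2 at -0.12 and MTHFD2 at -0.18). Against SUDHL5, DB differed in 7 of the 9 members other than ALDH1L2, against 41.8% of all genes, and 4 of the 7 fell less in DB or rose there. SHMT2 (0.57 ± 0.06), MTHFD2 (0.45 ± 0.06), PSPH (0.25 ± 0.08) and MTHFD1L (0.23 ± 0.08) were on that side, ALDH18A1 (-0.93 ± 0.07), PSAT1 (-0.73 ± 0.07) and SHMT1 (-0.23 ± 0.08) on the other. ALDH1L2 did not pass the filter in DB alone and entered this fit through SUDHL5, so its value is not read. The count was 5 without DB DMSO replicate 1, which took out PSPH and MTHFD1L. SHMT1 also lost its call without DB DMSO replicate 2, DB MI-503 replicate 1, SUDHL5 DMSO replicate 2 or SUDHL5 MI-503 replicate 2, and MTHFD1L without SUDHL5 MI-503 replicate 1. MTHFD1 was called without SUDHL5 DMSO replicate 1 (-0.51), and PHGDH without SUDHL5 MI-503 replicate 2 (0.16).

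PSAT1 was thus the member whose log2 fold change was lower in each EZH2 mutant line than in each wildtype line by the test of the difference, and in each of these 4 comparisons the difference was over 1.5-fold. The 4 comparisons share libraries, and a pair of lines per genotype does not show that the mutation sets the difference.

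Single drugs of the combination experiment moved few members and both drugs together moved most in KARPAS422. EPZ-6438 alone lowered 3 of 9 members in KARPAS422, against 10% of all genes tested, all of them mitochondrial. MTHFD1L had 122 and 112 CPM with EPZ-6438 against 181 and 172 CPM with DMSO (-0.64 ± 0.09, adjusted p = 0.0148). ALDH18A1 had 99.3 and 90.3 CPM with EPZ-6438 against 137 and 120 CPM with DMSO (-0.48 ± 0.14), and SHMT2 187 and 179 CPM with EPZ-6438 against 217 and 235 CPM with DMSO (-0.34 ± 0.09). No library of these genes overlapped between the groups, and the share of all genes without overlap was not counted. Without KARPAS422 EPZ-6438 replicate 2 none of the 3 was called, ALDH18A1 was not called without DMSO replicate 1 (-0.44, adjusted p = 0.156), and SHMT2 was not called without DMSO replicate 2 (-0.37, adjusted p = 0.161). DESeq2 called 5 members, adding MTHFD1 (-0.25) and MTHFD2 (-0.28), and with no filter on low counts 1 was called.

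With VTP50469 alone, no member of KARPAS422 was called, against 3.38% of all 13223 genes tested. MTHFD1L had 146 and 137 CPM with VTP50469 against 181 and 172 CPM with DMSO, without overlap, and its log2 fold change of -0.32 ± 0.09 had an adjusted p of 0.195 with edgeR and 0.0315 with DESeq2. It was the 1 member of the 9 with an unadjusted p under 0.05. PSAT1 had 93.9 and 95.7 CPM with VTP50469 against 130 and 103 CPM with DMSO (interval -0.72 to 0.12). Of the others ALDH18A1 had -0.19, MTHFD1 -0.16, PSPH -0.09, SHMT1 0.03, SHMT2 0.04, MTHFD2 0.07 and PHGDH, on few counts, 0.28 on the log2 scale.

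Both drugs lowered 7 of 9 members in KARPAS422, against 25.2% of all genes, 5 of them by more than 1.5-fold. The both-drug libraries of this line differed more from each other, against sampling noise, than the replicates of any other group. DCN was higher in the same libraries (1183 and 900 CPM with both drugs against 650 and 562.2 CPM with DMSO), and its part in these values was not tested. MTHFD1L had 66.9 and 70.1 CPM with both drugs against 181 and 172 CPM with DMSO (-1.40 ± 0.10, adjusted p = 0.000281). ALDH18A1 had 65.2 and 54.0 CPM with both drugs against 137 and 120 CPM with DMSO (-1.14 ± 0.14), and PSAT1 64.6 and 48.3 CPM with both drugs against 130 and 103 CPM with DMSO (-1.08 ± 0.18). For these genes both treated libraries lay below both controls, and the share of all genes that did so was not counted. MTHFD1 had 193 and 166 CPM with both drugs against 386 and 350 CPM with DMSO (-1.07 ± 0.11), and SHMT2 119 and 119 CPM with both drugs against 217 and 235 CPM with DMSO (-0.96 ± 0.09). PSPH (-0.53 ± 0.12) and SHMT1 (-0.46 ± 0.11) fell by less. The median was -0.96 over the members and 0.10 over all genes tested, and 0.33 over all genes when scaled by total counts alone.

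MTHFD2 and PHGDH stood apart. MTHFD2 had 123 and 108 CPM with both drugs against 137 and 132 CPM with DMSO (-0.25 ± 0.11, adjusted p = 0.101), and with the replicate block it was called (-0.25 ± 0.12, adjusted p = 0.0977), as it was with RLE size factors, DESeq2 and no filter. Without both-drug replicate 1 its value was -0.55 (adjusted p = 0.00222), and without DMSO replicate 2 it was -0.34 (adjusted p = 0.0789). PHGDH held 14 and 85 counts with both drugs against 4 and 18 with DMSO, 7 and 18 with EPZ-6438 and 11 and 20 with VTP50469. The rise rests on both-drug replicate 2, with 4.70 CPM, since the other library of that treatment (0.734 CPM) overlapped the controls (0.313 and 0.922 CPM). The fitted value was 2.05 ± 1.01 (adjusted p = 0.15), and 1.88 ± 0.62 with the replicate block (adjusted p = 0.0281). Without replicate 1 of both drugs it was 2.64 (adjusted p = 0.027).

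Added to EPZ-6438, VTP50469 lowered 6 of 9 members in KARPAS422, against 10.9% of all genes. PSAT1 had 64.6 and 48.3 CPM with both drugs against 112 and 103 CPM with EPZ-6438 alone (-0.92 ± 0.18), MTHFD1 193 and 166 CPM with both drugs against 331 and 311 CPM with EPZ-6438 (-0.83 ± 0.11), and MTHFD1L 66.9 and 70.1 CPM with both drugs against 122 and 112 CPM with EPZ-6438 (-0.77 ± 0.10). ALDH18A1 (-0.66 ± 0.14), SHMT2 (-0.62 ± 0.09) and PSPH (-0.39 ± 0.12) were also lower. Without EPZ-6438 replicate 2 no member was called, and without EPZ-6438 replicate 1 MTHFD1 alone was, with fold changes in the same direction. PSPH was also lost without both-drug replicate 2 (-0.28) and in a fit of the 2 groups alone (adjusted p = 0.138). MTHFD2 (0.02 ± 0.11) turned to a fall without both-drug replicate 1 (-0.29, adjusted p = 0.036), and without that library SHMT1 (-0.52) and PHGDH were called too. Whether the drugs' joint effect exceeded the sum of the single effects was not tested.

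**Figure D3:**
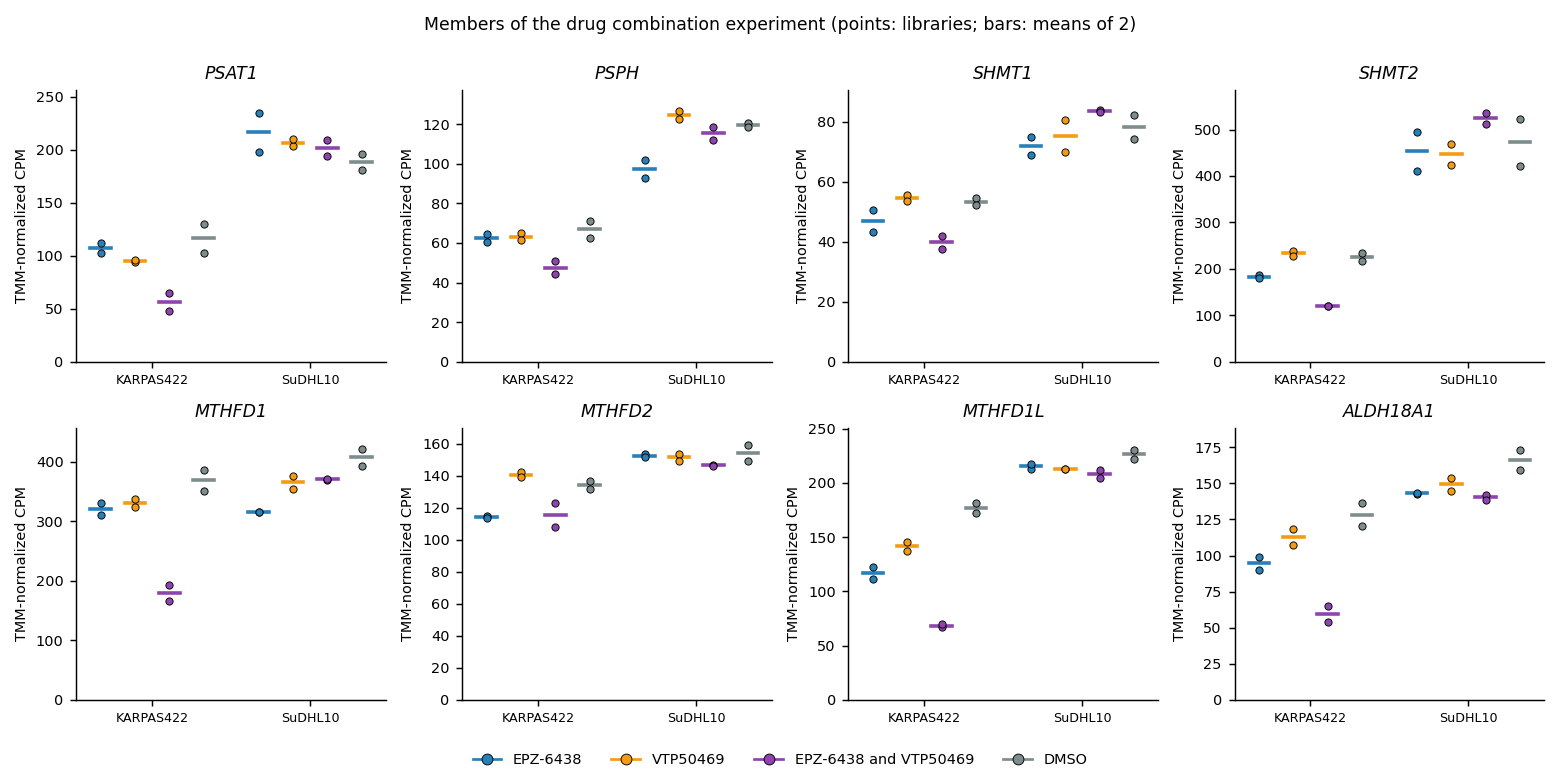
TMM-normalized CPM (y axis, from 0) of each enzyme except PHGDH and ALDH1L2 in the 16 libraries of the drug combination experiment. Within a line both drugs, EPZ-6438 and VTP50469 stand left of DMSO, and each point is a library. In KARPAS422 MTHFD1L shows 66.9 and 70.1 CPM with both drugs against 181 and 172 CPM with DMSO, while in SuDHL10 it shows 212 and 204 CPM with both drugs against 230 and 222 CPM with DMSO.

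Few members were called in SuDHL10 by the main fits, which left out the pairing by replicate number. More were called with the replicate block, except with VTP50469 alone. EPZ-6438 lowered 2 of 8 members tested, against 5.39% of all genes. MTHFD1 had 316 and 315 CPM with EPZ-6438 against 421.6 and 392.1 CPM with DMSO (-0.35 ± 0.08, adjusted p = 0.0236), and PSPH 92.6 and 102 CPM with EPZ-6438 against 121 and 119 CPM with DMSO (-0.29 ± 0.09). With the replicate block 4 members were called, adding a rise of PSAT1 (0.21 ± 0.07, adjusted p = 0.0322) and a fall of ALDH18A1 (-0.20 ± 0.07, adjusted p = 0.0386). No member was called without SuDHL10 DMSO replicate 1 or in a fit of the 2 groups alone. MTHFD1 alone was called without DMSO replicate 2, and PSPH was also lost without EPZ-6438 replicate 1, without which PSAT1 was called (0.31).

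With VTP50469 in SuDHL10, 0 of 8 members were called by edgeR, and so were 0 of all 11409 genes, of which 724 had an unadjusted p under 0.05. DESeq2 called 6 genes higher and 4 lower, and the replicate block 247 higher and 216 lower, with no member among them. The members' fold changes lay between -0.14 and 0.15, and the widest 95% interval, that of SHMT2, ran from -0.35 to 0.22. With both drugs no member was called against 21.6% of all genes, and with the replicate block 2 were, a rise of SHMT2 (536 and 511 CPM with both drugs against 524 and 422.1 CPM with DMSO, 0.19 ± 0.07, adjusted p = 0.0523) and a fall of ALDH18A1 (142 and 138 CPM with both drugs against 173 and 159 CPM with DMSO, -0.21 ± 0.07, adjusted p = 0.0257). Between both drugs and EPZ-6438 no member was called against 4.47% of all genes, and 4 were higher with the replicate block, PSPH (0.27), MTHFD1 (0.25), SHMT1 (0.24) and SHMT2 (0.24). Without EPZ-6438 replicate 1, 3 members (SHMT1, SHMT2 and MTHFD1) were called. PSAT1 in SuDHL10 had 194 and 209 CPM with both drugs against 181 and 196 CPM with DMSO, with an interval of -0.11 to 0.36.

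**Figure D4:**
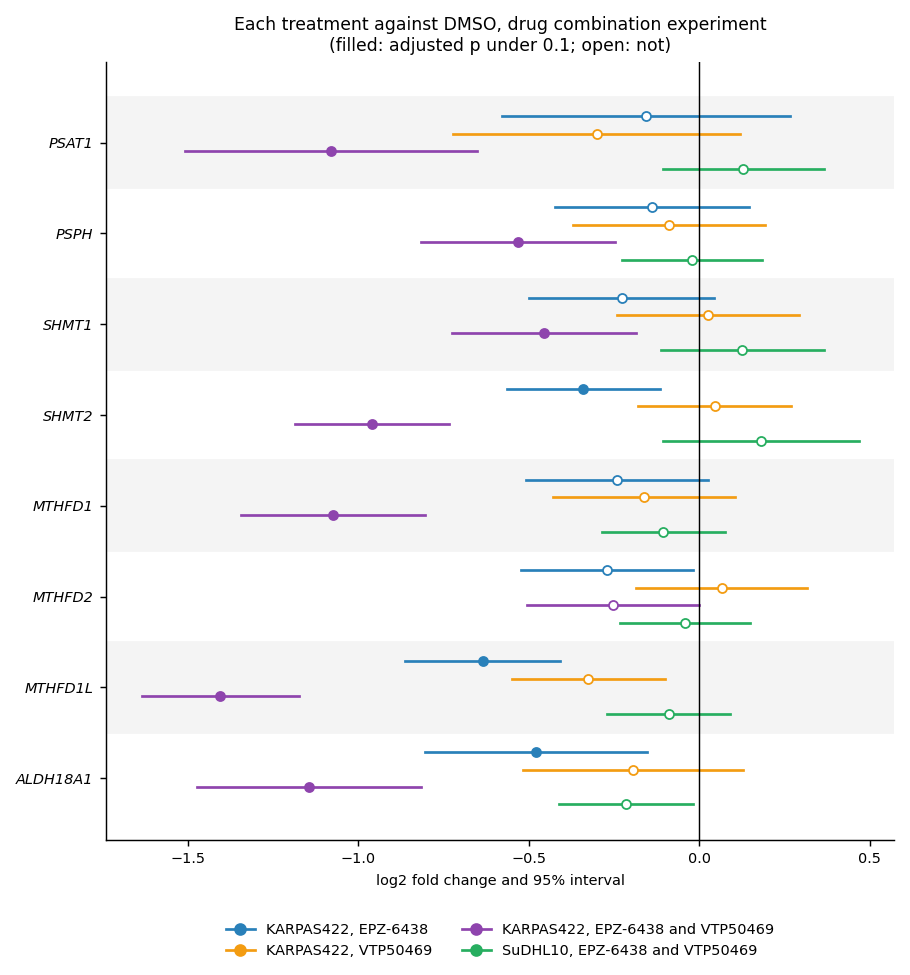
Log2 fold change over DMSO (x axis) with the 95% interval of each enzyme except PHGDH and ALDH1L2 (y axis). KARPAS422 is shown under EPZ-6438, VTP50469 and both drugs, and SuDHL10 under both drugs only. In KARPAS422 MTHFD1L lies at -0.64 with EPZ-6438, -0.32 with VTP50469 and -1.40 with both drugs, and in SuDHL10 the members lie between -0.21 and 0.18.

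The 5 cytosolic members (PHGDH, PSAT1, PSPH, SHMT1 and MTHFD1) and the 5 mitochondrial ones (SHMT2, MTHFD2, MTHFD1L, ALDH1L2 and ALDH18A1) were then set side by side. With MI-503, lower members numbered 4 of 5 cytosolic and 4 of 5 mitochondrial for KARPAS422 (26.3% of all genes lower), 5 of 5 and 3 of 4 for DB (34.7%), 0 of 5 and 3 of 4 for Farage (14.7%), and 5 of 5 and 4 of 5 for SUDHL5 (28.7%). With both drugs in KARPAS422 they numbered 4 of 5 cytosolic and 3 of 4 mitochondrial (25.2% of all genes lower), and with EPZ-6438 alone 0 of 5 and 3 of 4 (10%). Within a library, the ratio of a mitochondrial enzyme to its cytosolic counterpart does not depend on how that library is scaled, and it is given with no test.

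The SHMT2 to SHMT1 ratio turned opposite ways in the EZH2 mutant lines. On the log2 scale it was 2.47 ± 0.02 with MI-503 against 3.30 ± 0.03 with DMSO in KARPAS422 (SD, n = 2 each), and 2.70 ± 0.05 with MI-503 against 2.11 ± 0.02 with DMSO in DB. In Farage it was 2.59 ± 0.02 with MI-503 against 2.42 ± 0.03 with DMSO, and in SUDHL5 3.28 ± 0.00 with MI-503 against 3.49 ± 0.02 with DMSO. The libraries did not overlap in any of the 4 lines, so the ratio was lower with MI-503 in KARPAS422 and SUDHL5 and higher in DB and Farage. With both drugs it was 1.58 ± 0.11 against 2.08 ± 0.13 with DMSO in KARPAS422. SuDHL10 libraries overlapped, at 2.65 ± 0.04 with both drugs and 2.59 ± 0.11 with DMSO.

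The MTHFD2 to MTHFD1 ratio cannot be carried from one table to the other. With MI-503 it was 3.51 ± 0.03 against 4.27 ± 0.03 with DMSO in KARPAS422, and 4.48 ± 0.08 with MI-503 against 4.14 ± 0.18 with DMSO in DB. It was 3.42 ± 0.17 with MI-503 against 3.83 ± 0.04 with DMSO in Farage, and 4.83 ± 0.13 with MI-503 against 5.30 ± 0.27 with DMSO in SUDHL5, without overlap in any line. In the drug combination experiment KARPAS422 had -0.64 ± 0.02 with both drugs against -1.46 ± 0.06 with DMSO, and SuDHL10 had -1.05 ± 0.01 with EPZ-6438 against -1.40 ± 0.01 with DMSO. The MTHFD1L to MTHFD1 ratio of KARPAS422 was lower with each drug, at -1.39 ± 0.20 with both drugs, -1.46 ± 0.03 with EPZ-6438 and -1.22 ± 0.02 with VTP50469 against -1.06 ± 0.04 with DMSO, without overlap. With MI-503 that ratio was 1.66 ± 0.01 against 2.32 ± 0.11 with DMSO in KARPAS422 and 3.27 ± 0.06 with MI-503 against 3.03 ± 0.12 with DMSO in DB. In each line of the MI-503 experiment its difference had the sign of that of MTHFD2 to MTHFD1. Both ratios share the denominator MTHFD1, so a change of MTHFD1 alone moves both the same way, and nothing is read from the shared sign. In KARPAS422 of the drug combination experiment the signs were opposite with both drugs (0.82 for MTHFD2 and -0.33 for MTHFD1L) and with VTP50469 (0.23 and -0.17). They were the same with EPZ-6438 and in SuDHL10. The sign of the MTHFD2 to MTHFD1 ratio itself differed between the tables in the same line under the same vehicle. KARPAS422 DMSO cells averaged 27.2 CPM of MTHFD1 in the MI-503 table and 368 CPM in the drug combination table, a log2 ratio of -3.71 with 0.999% of 9008 genes below it, and 526 against 134 CPM of MTHFD2. PSPH averaged 62.6 and 67.0 CPM in the same cells. Whether the annotation, the counting or the cells set the MTHFD1 level was not tested, and each fold change here stays within a table.

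**Figure D5:**
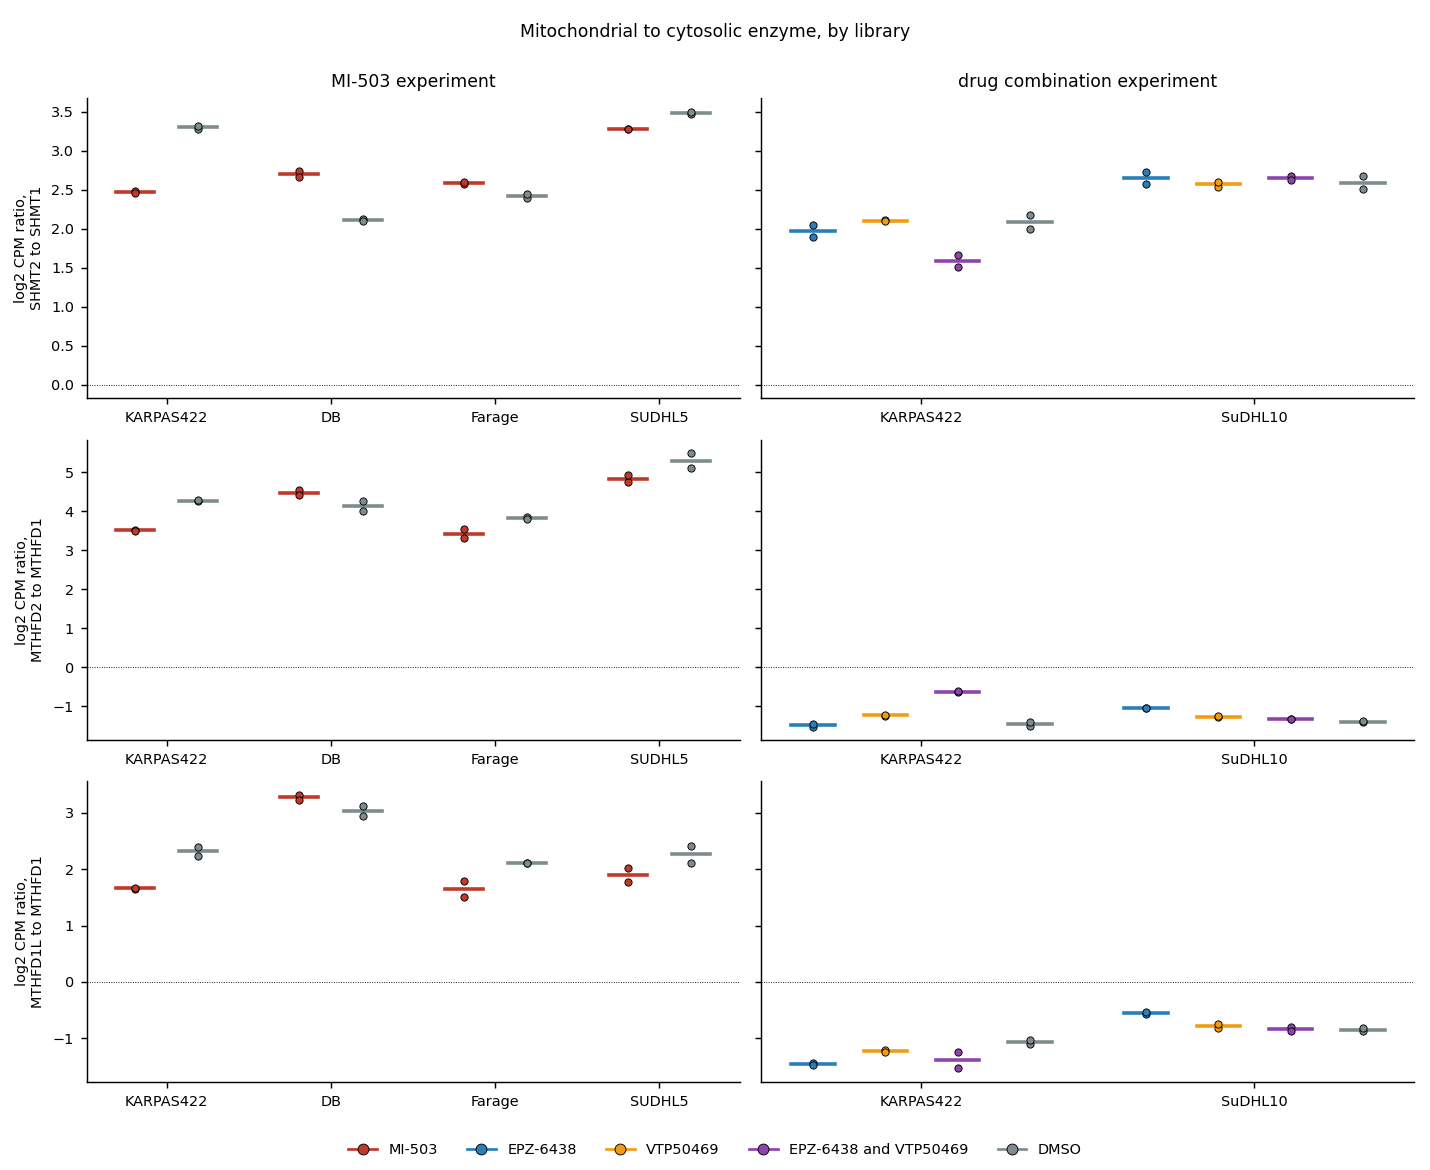
Log2 ratio of CPM (y axis) of a mitochondrial enzyme to its cytosolic counterpart in each library, by line, with treated libraries left of DMSO. SHMT2 to SHMT1 lies lower with MI-503 than with DMSO in KARPAS422 (2.47 against 3.30) and higher in DB (2.70 against 2.11), and MTHFD2 to MTHFD1 is above 0 in the MI-503 experiment and below 0 in the drug combination.

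The genes whose pattern was most like that of PSAT1 were found by the correlation of log2(CPM + 1) after subtracting each line's mean, over the 16 libraries of a table, as a description. In the MI-503 experiment they were GPT2, a mitochondrial alanine aminotransferase (r = 0.992), the methionyl-tRNA synthetase MARS1 (0.982), the amino acid transporters SLC1A5 (0.976) and SLC7A5 (0.972), and GRPEL2, of mitochondrial protein import (0.966), out of 8550 genes. For PHGDH they were EIF4EBP1, the translation repressor phosphorylated by mTORC1 (0.982), the asparaginyl-tRNA synthetase NARS1 (0.982), DNAJA3 (0.980), MARS1 (0.975) and HAX1 (0.970). These points share lines, treatment and library depth, so that the few conditions carry most of each r. Among the members, PHGDH (0.927), MTHFD1L (0.842) and MTHFD2 (0.828) were most like PSAT1 there, and ALDH1L2 (0.075) was least.

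The genes most like PSAT1 under the drug combination were ASNS, the asparagine synthetase (0.966), CDCA7 (0.965), TMEM38B (0.963), FABP5 (0.962) and CDKN2AIP (0.961), out of 8336 genes. Among the members MTHFD1 (0.843), ALDH18A1 (0.838) and MTHFD1L (0.837) were the nearest. PHGDH, near 0 in that table, was most like DPF3 (0.964), GABBR2 (0.960), FHIT (0.952), WWOX (0.949) and CELF2 (0.946). These 5 genes span 285.1 to 1504.2 kb in GENCODE, against a median of 27.4 kb over protein-coding genes, and the library that sets the PHGDH pattern, KARPAS422 with both drugs, replicate 2, had counts in 18199 genes, against 15880 in replicate 1 of that treatment. The part of this in the PHGDH value was not tested.

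Genes around the pathway were described from lists written with earlier results of these data known. Their counts are to be read against all genes tested, of which 26.3% were lower and 25.5% higher with MI-503 in KARPAS422, 34.7% and 34.5% in DB, 14.7% and 12.3% in Farage, and 28.7% and 26.3% in SUDHL5. With both drugs 25.2% of all genes were lower and 23.5% higher in KARPAS422, and 7.93% lower and 13.7% higher in SuDHL10. Of the 6 enzymes of de novo purine synthesis, which use the one-carbon units, 6 of 6 fell with MI-503 in DB, 6 of 6 in SUDHL5, 4 of 6 in KARPAS422 and 1 of 6 in Farage (34.7%, 28.7%, 26.3% and 14.7% of all genes in that order), and 5 of 5 tested fell with both drugs in KARPAS422 (25.2%). The Farage count is near its share of all genes. PAICS changed by -1.34 ± 0.04 in DB, -0.76 ± 0.04 in SUDHL5, -0.22 ± 0.03 in KARPAS422 and -0.32 ± 0.04 in Farage, and by -1.60 ± 0.20 with both drugs in KARPAS422. PFAS changed by -1.54 ± 0.04 in DB and by -1.24 ± 0.11 with both drugs in KARPAS422. The medians were -1.05 in DB, -0.49 in SUDHL5, -0.18 in KARPAS422 and -0.08 in Farage.

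Of the folate cycle and transport genes tested, 7 of 16 fell and 2 rose with MI-503 in KARPAS422, 11 of 15 fell and 2 rose in DB, 4 of 14 fell in Farage, and 8 of 13 fell and 1 rose in SUDHL5, where 26.3%, 34.7%, 14.7% and 28.7% of all genes fell in that order. The rises were fewer than the share of all genes in each line. TYMS, which makes thymidylate, changed by -0.36 ± 0.04 in KARPAS422, -1.36 ± 0.05 in DB and -0.85 ± 0.04 in SUDHL5. SLC19A1, the reduced folate carrier, changed by -0.95 ± 0.17 with EPZ-6438 and by -1.54 ± 0.17 with both drugs in KARPAS422, where 6 of 15 genes of this list fell and 2 rose with both drugs (25.2% of all genes fell and 23.5% rose).

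Of the genes of serine use and transport, 8 of 11 fell in KARPAS422 with MI-503, 6 of 12 fell and 4 rose in DB, 6 of 10 fell in Farage, and 5 of 11 fell and 2 rose in SUDHL5, against 26.3%, 34.7%, 14.7% and 28.7% of all genes that fell. The 4 of 12 that rose in DB are near the 34.5% of all genes that rose. SLC1A5, a neutral amino acid transporter that carries serine and glutamine, changed by -1.48 ± 0.05 in KARPAS422, -0.90 ± 0.03 in DB and -0.22 ± 0.04 in Farage, and by -1.25 ± 0.11 with both drugs in KARPAS422. SLC1A4 changed by -1.60 ± 0.04 in DB and -0.94 ± 0.04 in SUDHL5. Of methionine cycle and transsulfuration genes, CTH (-1.09 ± 0.07) and CBS (-1.44 ± 0.14), which turn homocysteine and serine into cysteine, fell in KARPAS422 with MI-503 among 4 of 7 that fell and 1 that rose. In DB 3 of 6 fell and 2 rose, in SUDHL5 4 of 6 fell and 1 rose, and in Farage 2 of 7 rose. Of glycine cleavage and choline-derived one-carbon genes, 2 of 6 fell and 1 rose in KARPAS422, 2 of 6 fell and 2 rose in DB, 1 of 6 rose in Farage and 2 of 6 fell in SUDHL5. The falls are near the 26.3% of all genes in KARPAS422, 34.7% in DB and 28.7% in SUDHL5, so nothing is read from them. Within this list GCSH changed by -1.60 ± 0.08 in DB. Of proline genes, which act after ALDH18A1, 3 of 3 fell in KARPAS422, 4 of 6 in DB (PYCR1 at -1.11 ± 0.03, with 2 rises), 1 of 5 in Farage with 1 rise and 3 of 4 in SUDHL5 with 1 rise. The methionine and proline counts are to be read against the same shares of all genes.

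Called genes among ATF4 and other stress regulators were mostly lower in KARPAS422 and mostly higher in DB. In KARPAS422 with MI-503, 6 of 9 fell and 1 rose (26.3% of all genes lower and 25.5% higher), with ATF4 at -1.30 ± 0.05, ATF5 at -2.18 ± 0.08, SESN2 at -1.98 ± 0.06 and CHAC1 at -3.50 ± 0.13. In DB 5 of 9 rose and 2 fell (34.5% of all genes higher and 34.7% lower), with TRIB3 at 1.52 ± 0.03, DDIT3 at 1.53 ± 0.04 and CEBPB at 0.92 ± 0.06. In SUDHL5 3 rose and 5 fell (26.3% and 28.7% of all genes), with DDIT3 at 0.62 ± 0.04 and SESN2 at -0.71 ± 0.05, and in Farage 2 rose and 2 fell (12.3% and 14.7%). TRIB3 and DDIT3, like several members, are known targets of ATF4. In DB they rose while PSAT1 fell, and the part of ATF4 in any of these changes was not tested. With both drugs in KARPAS422 4 of 8 fell and 1 rose (25.2% and 23.5% of all genes), with ATF4 at -0.87 ± 0.08 and SESN2 at 0.95 ± 0.11. With both drugs SuDHL10 had 1 rise among 8 of these genes, while 1 of 5 purine genes fell and 2 of 14 folate genes fell and 1 rose (7.93% of all genes fell and 13.7% rose).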

How the data were processed

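The deposited files hold raw read counts per gene in 2 tables, 1 for each experiment. Per the labels and the study's methods, the authors aligned reads to hg38 with HISAT2 2.1.0 and counted them with featureCounts 1.6.1 (CASAVA 1.7 and Picard 2.23.1 appear in the submitters' processing notes too) and tested genes with DESeq2. Annotation, strand and multimapping are not stated. The members and lists were chosen with earlier results of these data known.

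Counts were tested with edgeR 4.0.16 (quasi-likelihood test, TMM, filterByExpr, R 4.3.3, limma 3.58.1), with p-values adjusted over all genes by Benjamini-Hochberg. A gene was called at an adjusted p under 0.1, and 1.5-fold marked larger changes. Whether libraries overlapped between groups describes the few libraries of each group. It is no further test, and its share over all genes was not counted. MI-503 was tested within each line, responses as an interaction over a pair of lines, DMSO levels over 4 lines or 2, and the combination within each line over its 4 groups. Values after ± are standard errors unless SD is stated, approximated as the size of the fold change over the square root of the test's F. For the very large DMSO differences of PHGDH and ALDH1L2 between lines this understates the error, so none is given there. CPM used the TMM sizes of the 16 libraries of a table. Levels per kb used the Ensembl canonical transcript in GENCODE v44, which may not be the authors' annotation. Totals of 8956156 to 54883332 counts set the precision, and replicates of a group differed by more than sampling noise. The chi-square per gene of replicates ran from 1.96 to 6.78 in the MI-503 experiment and from 1.82 to 47.5 in the drug combination. KARPAS422 with both drugs had the highest, and its libraries enter every both-drug value of that line. The code was tested on simulated data.

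The rule named all 10 members in every comparison (members that were not called, and DMSO differences of DB and Farage, are partly given as counts or ranges) and up to 4 genes of each other list, those with the smallest p, except that some genes of the folate cycle and transport list are counted with it but not reported by name here. Likeness used genes of at least 5 CPM on average in every line. In the drug combination experiment, libraries of the same replicate number deviated together from their group means. Correlations were 0.65 to 0.864 in KARPAS422 and 0.109 to 0.471 in SuDHL10 over 6 pairs of groups each. The numbers were therefore taken to pair the samples of a line, and pairing between lines was not examined. The main tests left this pairing out, and the replicate block is the alternative that holds it. The alternatives were DESeq2 1.42.0, RLE size factors, no filter, total counts alone, a replicate block, 1 fit of all 16 libraries, the 2 compared groups alone, thinned counts, log2(CPM + 1) ratios and leaving out each library. The CUT&Tag, screen and other files were not used here.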

Additional observations from a re-analysis of the deposited data

Results flagged for a closer look

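The response to MI-503 differed between an EZH2 mutant and an EZH2 wildtype line, by the interaction term in edgeR's quasi-likelihood test, in 27 results, of which that of ALDH1L2 is not read. Of all genes 24.2% differed between KARPAS422 and Farage, 35.9% between KARPAS422 and SUDHL5, 48.5% between DB and Farage and 41.8% between DB and SUDHL5. The SHMT1 and ALDH18A1 results of KARPAS422 and that of MTHFD1L for DB against Farage were lost under many of the alternatives given above. Each value is the log2 fold change in the first line minus that in the second. The pairs of lines share libraries.

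KARPAS422 minus Farage gave -2.03 ± 0.26 for PHGDH (adjusted p = 0.000256), -1.91 ± 0.13 for PSAT1 (2.83e-06), -1.23 ± 0.07 for SHMT2 (9.42e-07), -0.63 ± 0.07 for MTHFD2 (6.59e-05), -0.52 ± 0.09 for PSPH (0.00184), -0.47 ± 0.09 for MTHFD1L (0.00436) and -0.24 ± 0.09 for SHMT1 (0.0758).

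KARPAS422 minus SUDHL5 gave -1.54 ± 0.11 for PSAT1 (adjusted p = 6.13e-07), -1.50 ± 0.19 for PHGDH (8.16e-05), -0.62 ± 0.05 for SHMT2 (2.69e-06), 0.25 ± 0.08 for PSPH (0.0222) and -0.15 ± 0.06 for ALDH18A1 (0.089).

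DB minus Farage gave -1.10 ± 0.09 for PSAT1 (adjusted p = 7.54e-07), -0.86 ± 0.13 for MTHFD1 (0.000144), -0.70 ± 0.07 for ALDH18A1 (5.39e-06), -0.54 ± 0.09 for PSPH (0.000424), -0.49 ± 0.07 for SHMT1 (0.000153), -0.46 ± 0.08 for PHGDH (0.000578) and -0.18 ± 0.07 for MTHFD1L (0.0718).

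DB minus SUDHL5 gave -0.93 ± 0.07 for ALDH18A1 (adjusted p = 2.25e-07), -0.73 ± 0.07 for PSAT1 (1.63e-06), -0.23 ± 0.08 for SHMT1 (0.0304), 0.57 ± 0.06 for SHMT2 (3.98e-06), 0.45 ± 0.06 for MTHFD2 (3.92e-05), 0.25 ± 0.08 for PSPH (0.0191), 0.23 ± 0.08 for MTHFD1L (0.0308) and 1.70 ± 0.64 for ALDH1L2 (0.0553). ALDH1L2 had 28 counts in MI-503 and 4 in DMSO libraries of DB, did not pass the filter in DB alone and entered through SUDHL5, so nothing is read from its value.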

How the results depend on the processing

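Of the alternatives for single members, 2129 kept direction and side of the threshold, 112 lost a call, 59 gained one and 2 reversed. With total counts alone MTHFD2 in DMSO was higher in DB than in Farage (0.0773 log2, -0.07 with TMM), and without both-drug replicate 1 MTHFD2 fell against EPZ-6438 in KARPAS422 (-0.29, with a range of -0.29 to 0.12 without each library). With the replicate block, members called numbered 3 for DMSO in SuDHL10 against KARPAS422 (6 without it), where pairing between the lines was not examined. In SuDHL10 they numbered 4 for EPZ-6438 (2), 2 for both drugs against DMSO (0) and 4 for both drugs against EPZ-6438 (0). Elsewhere in the drug combination the block changed the MTHFD2 and PHGDH calls for both drugs in KARPAS422. For EPZ-6438 in KARPAS422, 1 was called with no filter, 5 with DESeq2 and 5 in the 2 groups alone, against 3. For VTP50469 in KARPAS422, DESeq2 called 1, against 0. For EPZ-6438 in SuDHL10, 1 was called with total counts alone and 0 in the 2 groups alone. Without each library in turn, members called (ALDH1L2 included) ranged from 1 to 5 for MI-503 in Farage, 5 to 9 for DB against SUDHL5 in response, 6 to 9 for DB against Farage in DMSO, 3 to 6 for SuDHL10 against KARPAS422 in DMSO, 0 to 3 for EPZ-6438 in KARPAS422, 0 to 9 for both drugs against EPZ-6438 in KARPAS422, 0 to 2 for EPZ-6438 in SuDHL10 and 0 to 3 for both drugs against EPZ-6438 in SuDHL10. A group left with 1 library was assumed to vary like the others. With log2(CPM + 1), differences of mitochondrial to cytosolic ratios from DMSO moved by less than 1 SD, while the ratios themselves shifted by up to 0.11. In groups of 2 libraries, leaving 1 out cannot move a difference by 1 SD, so nothing is read from it for the ratios. Why counts moved was not tested.

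In the MI-503 experiment same-numbered libraries did not deviate together (correlations of 0.00715 in DB, -0.0309 in Farage, -0.0201 in KARPAS422 and -0.248 in SUDHL5). With the block PHGDH (0.12) and MTHFD1 (0.19) of Farage, the MTHFD2 response of DB against Farage (-0.12) and MTHFD1 in DMSO in KARPAS422 against Farage (0.18) were gained, and MTHFD2 in DMSO in DB against Farage was lost. In SUDHL5 a crossed pairing, added after seeing the data, called 9 members lower, as did the block and the fit without it, and 3751 genes higher and 4052 lower, against 3306 and 3598 with the block and 3522 and 3840 without. Low counts of PHGDH and ALDH1L2 limit their fold changes outside the lines that express them.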
